A study of Danio rerio with 19 samples.

Results

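The genes described here are markers of growing neurons and of their cytoskeleton: elavl3, elavl4, neurod1, gap43, stmn1b, stmn2b, nefmb, tubb5 and dcx. The list was drawn up with earlier results of these data known, its genes were looked up by gene name, and 8 of the 9 were found among the 26507 genes of the deposited count tables. The gene dcx is not listed there under that name and was not analysed here. All 8 genes passed the filter on low counts in every comparison.

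Messenger RNA of whole zebrafish larvae was sequenced in 19 libraries of 5 groups, with 4 of 5 replicates chosen for sequencing per the series' design text. The control group of 4 libraries was kept in a medium that the labels name ERM. Atorvastatin (AVS) is a statin, which blocks the cholesterol synthesis enzyme HMG-CoA reductase, and was given at 1 µg/L (AVS high, 4 libraries) or 100 ng/L (AVS low, 4 libraries). Afidopyropen (Afid) is an insecticide whose targets in insects are TRPV channels, and was given at 1 µg/L (Afid high, 4 libraries) or 100 ng/L (Afid low, 3 libraries). Strain, age and exposure time are not named in the labels, nor whether a replicate is its own tank, clutch or pool of larvae. The p-values therefore rest on the differences among libraries of a group, part of which may be technical. Read counts were used for 15 libraries. Values for Afid high come from the authors' deposited table of fold changes and p-values. The comparisons ask how each exposure differed from the control medium and from the other exposures.

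A neuron that has left the cell cycle switches on RNA-binding proteins and transcription factors, then sends out an axon whose tip is the growth cone. Microtubules are built and broken down as the axon grows. Proteins of the Elav family (elavl3, also called HuC, and elavl4, HuD) bind messenger RNAs of young neurons, and the elavl3 promoter is widely used to mark neurons in zebrafish larvae. The remaining genes act at the growth cone (gap43), on the microtubules (the stathmins stmn1b and stmn2b, the tubulin tubb5) or in the axon's intermediate filaments (nefmb).

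The 15 libraries held 8.63 to 18.6 M reads in genes, and each of the 8 genes had between 164 and 9317 reads in each library. Control replicate 2 stood apart in these genes. It held the highest level of 7 of the 8 genes among the controls (all except elavl3) and of 5 of the 8 among all 15 libraries. Its summed level of the 8 genes was 2011 counts per M reads (CPM, scaled by the TMM method), against 1224 to 1433 CPM in the other controls. In the same library the summed level of 18 exocrine pancreas genes was lowest, at 2614 CPM, against 8911 to 19195 CPM in the other controls, and that of 32 genes of synapses and mature neurons was highest, at 8762 CPM against 5924 to 7019 CPM. Ribosomal protein genes took 5.69% to 12.1% of reads, with 10.1% in control replicate 2 and the highest share in control replicate 4. Control replicate 4 stood apart in other genes. Its summed level of 20 lens genes was 11998 CPM, against 5006 to 6738 CPM in the other controls. Because of the 8 genes, the results are also given without control replicate 2, which was thus not the only unusual control.

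Compared per length of transcript, stmn1b stood highest and nefmb lowest in all 15 libraries. In the control the mean deposited FPKM (fragments per kilobase and M reads) was 223 ± 95.2 (SD, n = 4) for stmn1b. It was 73.7 ± 16.5 for neurod1, 64.7 ± 8.23 for elavl3 and 59.4 ± 12.7 for elavl4 (SD, n = 4 each), and these 3 genes did not differ beyond their spread. The mean FPKM was 38.7 ± 6.99 for stmn2b, 32.6 ± 7.77 for tubb5 and 23.5 ± 6.96 for gap43 (SD, n = 4 each), where neighbours in the order overlapped between libraries. For nefmb it was 12.4 ± 1.88 (SD, n = 4), below every gap43 value. The place of elavl3 in this order varied most: it was the 2nd highest gene in all 3 Afid low libraries and the 6th of 8 in AVS high replicates 2 and 4 and in AVS low replicate 1.

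The positions below are those of the deposited tables, whose genome build is not given in the sources used here. The gene elavl3 (ENSDARG00000014420) lies on chromosome 3, 46800190 to 46818001, minus strand, and elavl4 (ENSDARG00000045639) on chromosome 8, 16004154 to 16117112, plus strand. The gene neurod1 (ENSDARG00000019566) lies on chromosome 9, 44291721 to 44295071, minus strand. The plus-strand genes are gap43 (ENSDARG00000099744; chromosome 15, 47161917 to 47176151), stmn1b (ENSDARG00000033655; chromosome 16, 34523515 to 34527206), stmn2b (ENSDARG00000070537; chromosome 19, 31771270 to 31790551), nefmb (ENSDARG00000043697; chromosome 8, 6863462 to 6866890) and tubb5 (ENSDARG00000037997; chromosome 16, 10318893 to 10327620). In these coordinates stmn1b overlaps paqr7b on the same strand, which held 55 to 239 reads against 1682 to 9317 for stmn1b. The span of elavl4 holds the opposite-strand gene CR931780.1, with 0 to 12 reads, and that of tubb5 holds the small RNA RF00001. The library kit keeps the strand, per the labels, but the strand option of the counting is not given in the sources used here, so reads of elavl4 and of its opposite-strand neighbour may be mixed. Zebrafish carry close copies of tubulin, stathmin and Elav genes, and how reads shared between copies were counted is likewise not known.

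**Figure D1:**
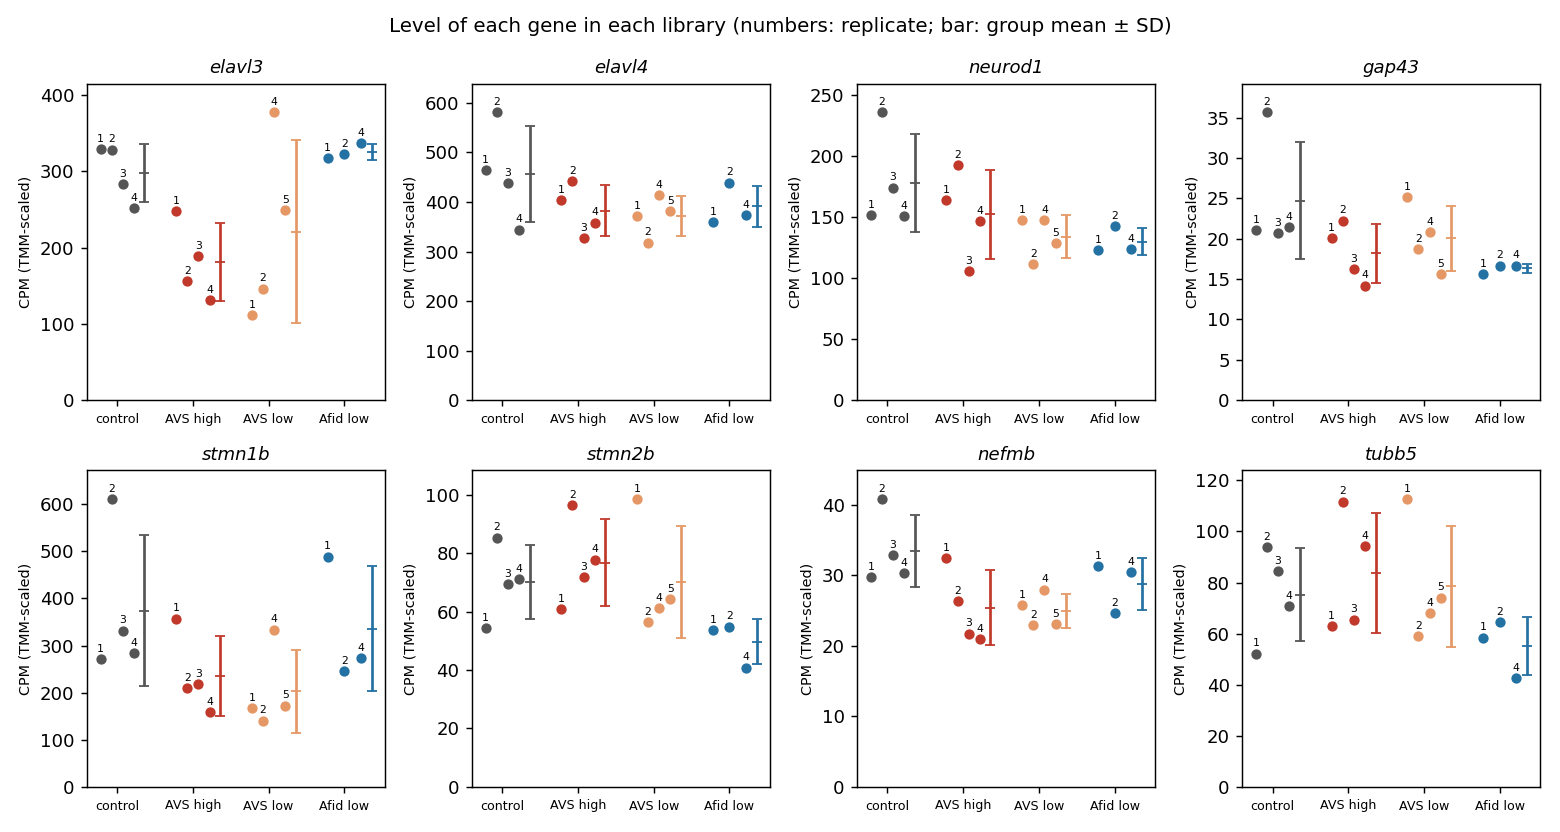
Level of each of the 8 genes in CPM (y axis, from 0) in every library of the control, AVS high, AVS low and Afid low groups; digits are replicate numbers and bars are group means ± SD. Control replicate 2 is the highest control in every panel except elavl3, and elavl3 is lower in all 4 AVS high libraries than in any control.

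Most of the 8 genes had lower values in each exposure than in the control, but none passed the test in any comparison. Against the control, 6 of 8 genes were lower in AVS high, 7 of 8 in AVS low and 7 of 8 in Afid low. The median log2 fold change of the 8 genes was −0.33, −0.36 and −0.32 in the same order, while over all genes tested it was −0.0010, −0.0084 and 0.0060. Of all genes tested, 50.2%, 50.8% and 49.2% had a log2 fold change below 0. These 3 comparisons share the same control libraries. Without control replicate 2 the median of the 8 genes was −0.17, −0.20 and −0.19, with 6 of 8 genes lower in each. Leaving out control replicate 4 instead moved most fold changes downward, elavl4 to −0.38, −0.41 and −0.32 in the same order. Only stmn2b moved upward, to 0.013 in AVS low and −0.47 in Afid low. With control replicate 4 left out, 6, 6 and 7 of 8 genes were lower. In RNA of whole larvae each level is relative to the RNA of all tissues. Fewer neurons, less RNA per neuron and a changed share of other tissues cannot be told apart.

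By edgeR's quasi-likelihood test at a Benjamini-Hochberg adjusted p under 0.05, 0 of 8 genes were called in each comparison. The background was 0 of 18929 genes (0%) in AVS high, 0 of 19267 (0%) in AVS low and 0 of 19399 (0%) in Afid low. DESeq2 called 61, 43 and 15 genes (0.24%, 0.168% and 0.0584%) and 0 of the 8, with a smallest adjusted p of 0.0971 among them, for elavl3 in AVS high. At an unadjusted p under 0.05 in edgeR, 2 of the 8 genes were lower in AVS high (5.39% of all genes were), 3 in AVS low (4.97%) and 3 in Afid low (3.46%), and 0 were higher (3.37%, 5.14% and 3.59% of all genes were). All libraries of a group lay below all controls for 1 gene in AVS high (2.93% of all genes did), 2 in AVS low (2.27%) and 2 in Afid low (4.67%), and above them for 0 (2.26%, 2.09% and 4.25%). These counts moved with single libraries, as did those over all genes. With each library left out in turn, 1 to 3 of the 8 genes were lower at an unadjusted p under 0.05 in AVS high, with 1 without AVS high replicate 3 or 4 or control replicate 2. In AVS low the count was 0 with control replicate 2 left out, 1 with AVS low replicate 2 or 5 left out, and up to 4 with AVS low replicate 4 or control replicate 4 left out. In Afid low it ran from 1 without Afid low replicate 1 or 4 to 4 without Afid low replicate 2 or control replicate 1. Over all genes, the number at an unadjusted p under 0.05 in either direction likewise ran from 945 to 2540 in AVS high. It ran from 922 to 3219 in AVS low and from 729 to 2017 in Afid low. In AVS low it was 922 and 1155 without AVS low replicates 2 and 5. It was 3219 without AVS low replicate 4 and 2095 without control replicate 4. In Afid low it was 1372 and 729 without Afid low replicates 1 and 4. It was 1077 without Afid low replicate 2 and 2017 without control replicate 1. Without control replicate 2, 5.21%, 2.35% and 3.05% of all genes were lower at that p in AVS high, AVS low and Afid low. Without AVS low replicate 4, 8.95% of all genes were lower at that p in AVS low. There 4 of the 8 genes lay below all controls, as did 8.62% of all genes. For the other runs the share of all genes that were lower is not given, so their counts of the 8 genes lack that background.

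Of the RNA-binding proteins, elavl3 had the lowest p of the 8 genes in AVS high. It stood at 329, 329, 283 and 252 CPM in control replicates 1 to 4 and at 248, 156, 189 and 131 CPM in AVS high replicates 1 to 4. All 4 AVS high libraries lay below all 4 controls, replicate 1 of AVS high by a narrow margin. The log2 fold change was −0.72 (SE 0.20), 0.608 times the control, with an edgeR adjusted p of 0.408 and rank 155 of 18929 genes by p. This value depended little on control replicate 2, without which it was −0.67.

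In AVS low, elavl3 ranged more widely than in any other group, with 112, 146, 377 and 249 CPM in replicates 1, 2, 4 and 5. Replicates 1 and 2 lay far below every control, replicate 5 just below the lowest control and replicate 4 above the highest. Its log2 fold change was −0.43 (SE 0.31; edgeR adjusted p = 0.623), −0.82 without AVS low replicate 4 (edgeR adjusted p = 0.162), and −0.20 and −0.28 without AVS low replicates 1 and 2. In Afid low it stood at 318, 322 and 337 CPM in replicates 1, 2 and 4, a tight group at the upper end of the controls. The log2 fold change there was 0.14 (SE 0.16; edgeR adjusted p = 0.842). In Afid high the authors' deposited table gives a log2 fold change of 0.23 with a p-value of 0.135.

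The second Elav gene, elavl4, varied less. It stood at 465, 581, 437 and 344 CPM in control replicates 1 to 4, at 404, 442, 326 and 358 CPM in AVS high replicates 1 to 4, and at 372, 318, 415 and 382 CPM in AVS low replicates 1, 2, 4 and 5. Afid low replicates 1, 2 and 4 stood at 360.1, 439 and 374 CPM. Each exposed group overlapped the controls, of which replicate 2 was highest and replicate 4 among the low values. For elavl4 the log2 fold change was −0.25 (SE 0.19; edgeR adjusted p = 0.688) in AVS high, −0.30 (SE 0.19; 0.577) in AVS low and −0.21 (SE 0.20; 0.808) in Afid low. With control replicate 2 left out it was −0.12, −0.16 and −0.076. The authors' deposited table gives −0.061 in Afid high.

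The transcription factor neurod1 drives the differentiation of neuronal precursors and is also expressed in photoreceptors and in endocrine cells of the pancreas. It stood at 151, 235, 174 and 150.3 CPM in control replicates 1 to 4 and at 164, 192, 106 and 146 CPM in AVS high replicates 1 to 4, where the groups overlapped. AVS low replicates 1, 2, 4 and 5 stood at 148, 111, 148 and 128 CPM, and Afid low replicates 1, 2 and 4 at 123, 142 and 123 CPM. Both of these groups lay below every control, AVS low only by a narrow margin. For neurod1 the log2 fold change was −0.23 (SE 0.21; edgeR adjusted p = 0.752) in AVS high, −0.41 (SE 0.18; 0.486) in AVS low and −0.44 (SE 0.18; 0.688) in Afid low. Its values in AVS high, AVS low and Afid low were −0.055, −0.25 and −0.28 without control replicate 2. The authors' deposited table gives −0.33 (p-value 0.131) in Afid high.

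As neurod1 is not specific to neurons of the brain, the lists of the other cell types stand beside it. Of 27 photoreceptor genes tested, 19 were lower in AVS high, 24 in AVS low and 21 in Afid low, with a median log2 fold change of −0.13, −0.26 and −0.14, and of −0.0029, −0.16 and −0.059 without control replicate 2. Those of smallest p were cnga3a (−0.89, SE 0.26) and pde6ha (−0.68, SE 0.24) in AVS high, grk1b (−0.98, SE 0.22) and guca1c (−0.79, SE 0.18) in AVS low, and pde6ha (−0.91, SE 0.25) and prph2b (−0.51, SE 0.20) in Afid low. Of 10 genes of the endocrine pancreas tested, 5, 4 and 6 were lower, with a median of 0.054, 0.060 and −0.090. Without control replicate 2 the endocrine medians were 0.055, −0.034 and −0.065. By edgeR 0 genes of either list were called, while 4, 6 and 3 photoreceptor genes and 0, 1 and 0 endocrine genes were lower at an unadjusted p under 0.05. Of all genes 5.39%, 4.97% and 3.46% were lower at that p. The summed photoreceptor level ran from 4063 to 7002 CPM in the control, and each exposed group overlapped it, with 4154 to 6036 CPM in AVS high, 3959 to 7162 CPM in AVS low and 4154 to 5211 CPM in Afid low. The part of photoreceptors in the neurod1 values was not tested.

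The growth cone protein gap43 is made by neurons whose axons extend or regrow. It stood at 21.1, 35.7, 20.7 and 21.5 CPM in control replicates 1 to 4, so that 3 controls lay within 1 CPM of each other and replicate 2 far above. AVS high replicates 1 to 4 stood at 20.1, 22.2, 16.2 and 14.2 CPM, and AVS low replicates 1, 2, 4 and 5 at 25.2, 18.7, 20.8 and 15.6 CPM. Both groups overlapped the controls. Afid low replicates 1, 2 and 4 stood at 15.6, 16.7 and 16.7 CPM, below every control.

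For gap43 the log2 fold change in Afid low was −0.59 (SE 0.22), 0.666 times the control, with an edgeR adjusted p of 0.688, and −0.36 without control replicate 2. It was −0.45 (SE 0.22; edgeR adjusted p = 0.591) in AVS high and −0.30 (SE 0.22; 0.628) in AVS low, and −0.22 and −0.072 without control replicate 2. The authors' deposited table gives −0.27 (p-value 0.274) in Afid high.

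Stathmins bind tubulin dimers and destabilize microtubules. The gene stmn1b, the most abundant of the 8 per length, stood at 271, 611, 332 and 284 CPM in control replicates 1 to 4 and at 357, 210, 218 and 158 CPM in AVS high replicates 1 to 4. AVS low replicates 1, 2, 4 and 5 stood at 167, 141, 334 and 172 CPM, and Afid low replicates 1, 2 and 4 at 489, 245 and 274 CPM. In each group 1 library was far above the others, namely control replicate 2, AVS high replicate 1, AVS low replicate 4 and Afid low replicate 1. The other 3 libraries of each AVS group lay below every control, but the groups overlapped.

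The log2 fold change of stmn1b was −0.66 (SE 0.29; edgeR adjusted p = 0.550) in AVS high and −0.88 (SE 0.31; 0.464) in AVS low, 0.631 and 0.543 times the control. Leaving out control replicate 2 gave −0.32 and −0.54. Without AVS low replicate 4 the value in AVS low was −1.23 (edgeR adjusted p = 0.0964). In Afid low it was −0.14 (SE 0.31; edgeR adjusted p = 0.923) and turned to 0.20 without control replicate 2. The authors' deposited table gives −0.17 (p-value 0.510) in Afid high.

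The other stathmin, stmn2b, also called SCG10 in mammals, is found in growth cones. It stood at 54.4, 85.4, 69.4 and 71.3 CPM in control replicates 1 to 4 and at 61.0, 96.6, 71.9 and 77.9 CPM in AVS high replicates 1 to 4. AVS low replicates 1, 2, 4 and 5 stood at 98.6, 56.4, 61.3 and 64.3 CPM, and Afid low replicates 1, 2 and 4 at 53.6, 54.9 and 40.8 CPM. The AVS groups spread over the range of the controls and above it, while Afid low lay at or below its lower end and overlapped only with control replicate 1.

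Unlike stmn1b, stmn2b had values near the control in both AVS groups. Its log2 fold change was 0.13 (SE 0.18; edgeR adjusted p = 0.839) in AVS high and −0.00039 (SE 0.20; 0.9996) in AVS low, and 0.25 and 0.11 without control replicate 2. In Afid low it was −0.48 (SE 0.18; edgeR adjusted p = 0.688), 0.716 times the control, and −0.38 without control replicate 2. The authors' deposited table gives −0.30 in Afid high, with a p-value of 0.0708, the smallest of the 8 genes there.

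The gene nefmb codes for a medium neurofilament chain, part of the intermediate filaments of axons. It stood at 29.7, 40.8, 32.8 and 30.3 CPM in control replicates 1 to 4 and at 32.5, 26.4, 21.7 and 20.9 CPM in AVS high replicates 1 to 4. AVS low replicates 1, 2, 4 and 5 stood at 25.8, 22.9, 27.9 and 23.0 CPM, and Afid low replicates 1, 2 and 4 at 31.3, 24.6 and 30.4 CPM. All AVS low libraries lay below every control, as did all AVS high libraries except replicate 1. For nefmb the log2 fold change was −0.40 (SE 0.19; edgeR adjusted p = 0.574) in AVS high, −0.42 (SE 0.16; 0.464) in AVS low and −0.20 (SE 0.17; 0.792) in Afid low. These values were −0.29, −0.32 and −0.097 without control replicate 2. The authors' deposited table gives −0.089 in Afid high.

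The beta-tubulin gene tubb5 codes for a building block of microtubules. It stood at 52.1, 93.9, 84.4 and 70.7 CPM in control replicates 1 to 4 and at 63.0, 111.7, 65.5 and 94.3 CPM in AVS high replicates 1 to 4. AVS low replicates 1, 2, 4 and 5 stood at 112.6, 59.0, 68.2 and 74.1 CPM, and Afid low replicates 1, 2 and 4 at 58.4, 64.4 and 42.5 CPM. All groups overlapped the controls. For tubb5 the log2 fold change was 0.15 (SE 0.22; edgeR adjusted p = 0.851) in AVS high, 0.060 (SE 0.23; 0.934) in AVS low and −0.44 (SE 0.21; 0.701) in Afid low. With control replicate 2 left out it was 0.28, 0.18 and −0.31. The authors' deposited table gives −0.27 (p-value 0.175) in Afid high.

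**Figure D2:**
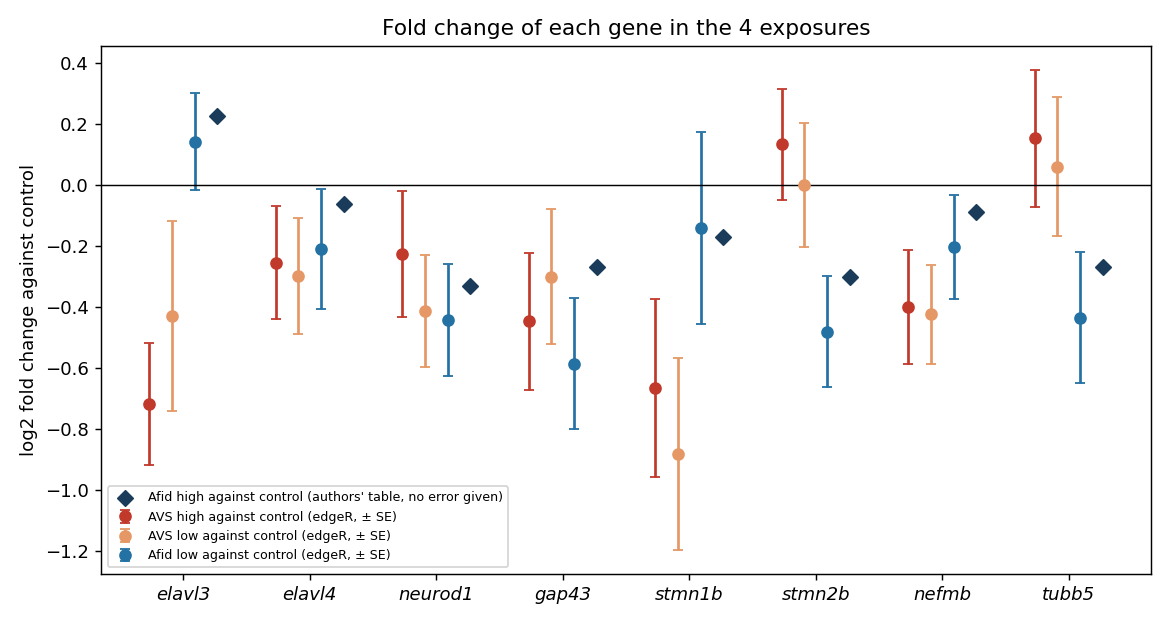
Log2 fold change against the control (y axis) of the 8 genes; circles are edgeR values with bars of ± SE for the 3 exposed groups with counts, and diamonds are the authors' deposited values for Afid high, which carry no error. Both AVS values of elavl3 and stmn1b are below −0.4, while elavl3 is above 0 at both afidopyropen doses and stmn2b and tubb5 are below 0 there. All values are ratios to the same control group.

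In Afid high, 7 of the 8 genes had a log2 fold change below 0 in the authors' deposited table, with a median of −0.22. These are ratios to the same control group as in the other exposures. Only the authors' values were used for Afid high, so they are not given without control replicate 2. That table gives 0 of the 8 an adjusted p under 0.05 (9 of the 25827 genes with a p-value, 0.0348%) and 0 a p-value under 0.05, which 7.04% of its genes have. The adjusted p was read as not given for 89.2% of its genes, gap43 and nefmb among them. The share of 0.0348% is over genes with a p-value, and among genes with an adjusted p it is higher. For gap43 and nefmb the adjusted p can therefore decide nothing. Over all genes of the authors' deposited table, 46.9% were below 0 and the median was 0.027.

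Set against Afid low, both AVS groups had their widest differences in elavl3, stmn1b, stmn2b and tubb5, but edgeR called 0 of 8 genes in each comparison between exposures. Between AVS high and AVS low the log2 difference ran from −0.29 (elavl3, SE 0.28) to 0.21 (stmn1b, SE 0.32), with SEs of 0.17 to 0.32 and edgeR adjusted p of 0.955 or more. Of the 8 genes 2 were lower in AVS high (48.9% of all genes were), 0 were lower or higher at an unadjusted p under 0.05 (4.05% and 1.39%), and for 0 did the groups lie apart (1.05% lower and 0.978% higher). Of all 20144 genes, edgeR called 0 (0%) and DESeq2 called 5 (0.0201%).

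Against Afid low, 4 of the 8 genes were lower in AVS high, as were 48.1% of all genes. AVS high had lower elavl3, by a log2 difference of −0.85 (SE 0.30; edgeR adjusted p = 0.245), and every AVS high library lay below every Afid low one. It had higher stmn2b, by 0.63 (SE 0.22; edgeR adjusted p = 0.238), with every AVS high library above every Afid low one. For tubb5 the difference was 0.60 (SE 0.26; edgeR adjusted p = 0.306), and the groups overlapped. Counts of non-overlap have a high background here, with 8.4% of all genes lower and 8.2% higher without overlap. At an unadjusted p under 0.05, 1 of the 8 genes was lower (7.98% of all genes were) and 2 were higher (6.35%). DESeq2 called 237 genes (0.953%) and 0 of the 8, with a smallest adjusted p of 0.133 among them.

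At the low doses, 4 of the 8 genes were lower in AVS low than in Afid low, as were 46.7% of all genes. AVS low had higher stmn2b than Afid low, by a log2 difference of 0.49 (SE 0.21; edgeR adjusted p = 0.693), with no overlap between the libraries, as for 3.77% of all genes, while for 0 of the 8 genes did AVS low lie wholly below (3.66%). It had lower stmn1b, by −0.72 (SE 0.34; edgeR adjusted p = 0.693), where Afid low replicate 1 and AVS low replicate 4 stood above the rest of their groups and the groups overlapped. That value was −1.09 without AVS low replicate 4 and −0.38 without Afid low replicate 1. For elavl3 the difference was −0.56 (SE 0.30; edgeR adjusted p = 0.693), −0.97 without AVS low replicate 4, and −0.36 and −0.40 without AVS low replicates 1 and 2. The 5 other genes differed by −0.21 to 0.51. At an unadjusted p under 0.05, 1 of the 8 genes was lower (3.61% of all genes were) and 1 higher (3.12%), and DESeq2 called 0 genes (0%).

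**Figure D3:**
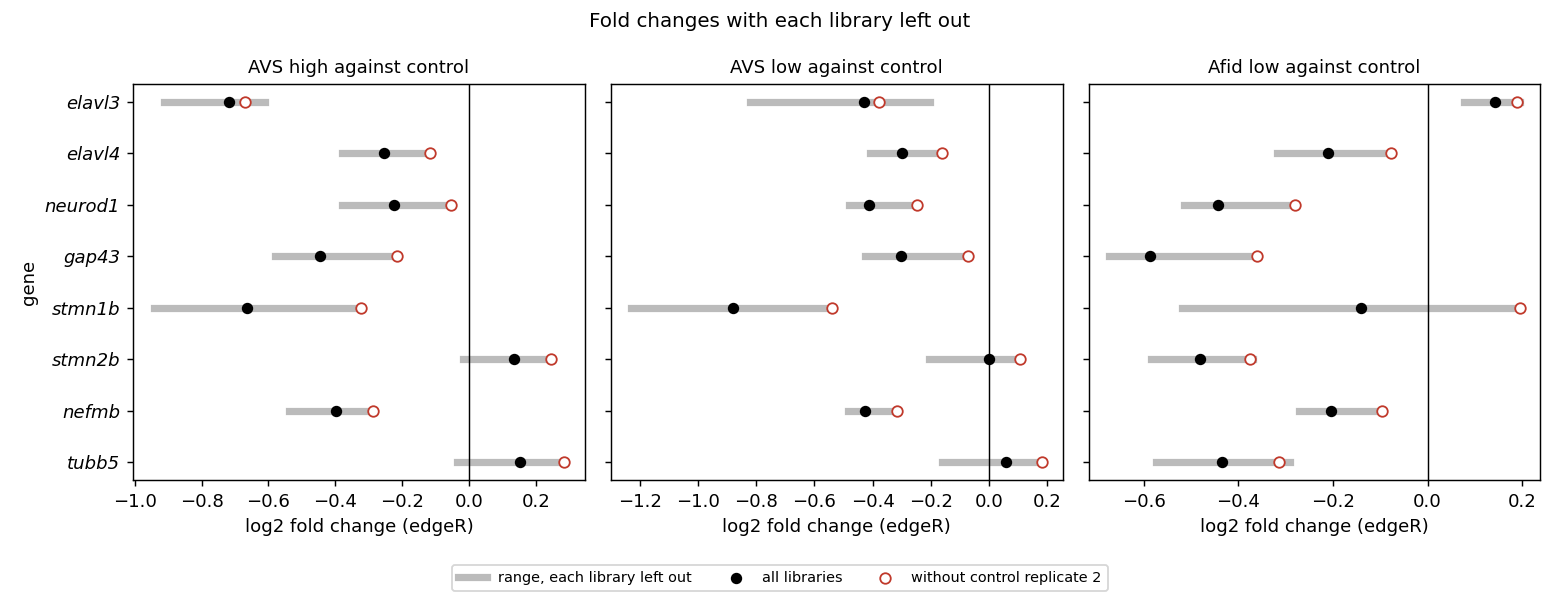
Log2 fold change against the control (x axis) of the 8 genes (y axis) in 3 panels; black points use all libraries, grey bars span the values with each library left out in turn, and open circles leave out control replicate 2. Leaving out control replicate 2 moves every gene upward, which for 7 of the 8 genes follows from its being the highest control. The value of stmn1b in Afid low moves from −0.14 to 0.20, while elavl3 in AVS high stays between −0.91 and −0.61 over all libraries left out.

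The 8 genes did not vary together as 1 group across the 15 libraries. Of their 28 pairs, 22 had a positive Pearson correlation of log2 CPM and 6 a negative one, and 11 had a permutation p under 0.05 after Benjamini-Hochberg adjustment over the 28 pairs, 1 of them negative. The closest pair was stmn2b with tubb5, the growth cone stathmin and the tubulin, with r = 0.96 and Spearman's rho = 0.94. The permutation p of both was 1e-05, the smallest that the permutations can give, and 0.00028 after adjustment. Without the 2 libraries farthest from the median of stmn2b, r was 0.92, and r of the deviations from the group means was 0.95. The ratio of tubb5 to stmn2b ran only from 0.910 to 1.21 over the 15 libraries.

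A second close set joined stmn1b with nefmb (r = 0.88, permutation p = 2e-05, adjusted 0.00028; rho = 0.87, permutation p = 6e-05, adjusted 0.00084) and with elavl3 (r = 0.74, permutation p = 0.00173, adjusted 0.00969; rho = 0.69, permutation p = 0.00626, adjusted 0.0351). Without the 2 farthest libraries these r were 0.81 and 0.66, and within groups, as deviations from group means, 0.84 and 0.63. Another pair was elavl4 with neurod1 (r = 0.85, permutation p = 0.00017, adjusted 0.00159; rho = 0.73, permutation p = 0.00329, adjusted 0.023), with r = 0.77 without the farthest 2, control replicates 1 and 2. The pair gap43 and neurod1 had r = 0.76 (permutation p = 0.00128, adjusted 0.00896; rho = 0.74, permutation p = 0.00231, adjusted 0.0216), and r = 0.68 without control replicate 2 and AVS high replicate 4.

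The genes elavl3 and stmn2b varied in opposite directions, with r = −0.61 (permutation p = 0.0167, adjusted 0.0438) and rho = −0.59 (permutation p = 0.0252, adjusted 0.101). This relation weakened to r = −0.42 without AVS low replicate 1 and AVS high replicate 4, and was −0.51 as deviations from group means and −0.73 without control replicate 2. Of the other adjusted calls, gap43 with nefmb (r = 0.67), elavl4 with gap43 (r = 0.66) and elavl4 with nefmb (r = 0.65) rested on 2 libraries each, control replicate 2 among them, without which r was 0.28, 0.29 and 0.39. Also called were elavl3 with nefmb (r = 0.60, adjusted permutation p = 0.0438) and nefmb with neurod1 (r = 0.65, 0.0287). Without the 2 farthest libraries their r were 0.55 and 0.53. Their rho of 0.55 and 0.58 had adjusted permutation p of 0.129 and 0.101. All values of a library share its scaling, whose part in these correlations was not tested.

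**Figure D4:**
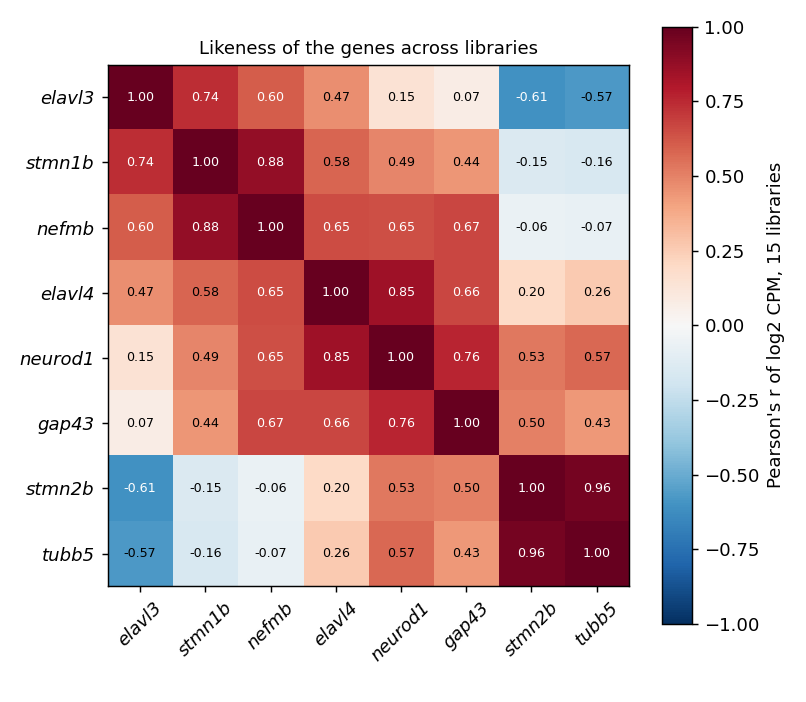
Pearson's r of log2 CPM between each pair of the 8 genes over 15 libraries, as numbers and as colour from blue (−1) to red (1). The genes stmn2b and tubb5 form a block at 0.96 and stand at −0.61 and −0.57 with elavl3, while stmn1b and nefmb stand at 0.88.

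As a description chosen after the values were seen, the ratio of elavl3 to stmn2b within a library is free of library scaling. It was 6.05, 3.85, 4.07 and 3.53 in control replicates 1 to 4 and 4.07, 1.61, 2.63 and 1.68 in AVS high replicates 1 to 4. In AVS low replicates 1, 2, 4 and 5 it was 1.13, 2.59, 6.16 and 3.88, and in Afid low replicates 1, 2 and 4 it was 5.92, 5.87 and 8.26. AVS high and Afid low did not overlap in the ratio, which follows from the lack of overlap in elavl3 and in stmn2b alone. AVS high replicate 1 lay among the controls, and AVS low ran from 1.13 to 6.16. Control replicate 2, which was high in most single genes, lay among the other controls in this ratio.

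**Figure D5:**
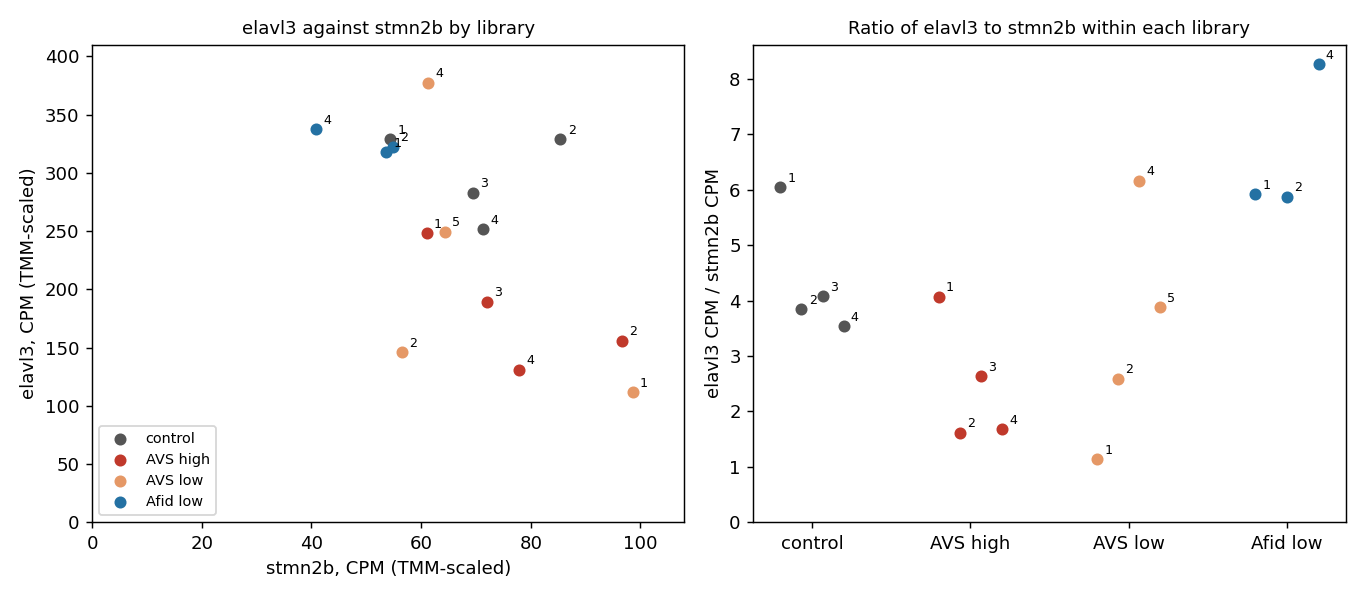
Left, elavl3 against stmn2b in CPM for each of 15 libraries; right, their ratio by group; digits are replicate numbers. AVS high replicates 2 and 4 and AVS low replicate 1 have ratios of 1.61, 1.68 and 1.13, below every control, and the 3 Afid low libraries lie at 5.87 or above.

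Among 13081 other genes with a mean of at least 5 CPM, the 10 most like the mean of the 8 genes across the 15 libraries had r between 0.91 and 0.94. Of these 10, 4 stand in the lists of neuronal or glial genes described next, whose share of the 13081 genes was not counted. The highest r was that of adcyap1b, a neuropeptide gene (0.94), followed by the paraspeckle gene pspc1 (0.93), glula, a glutamine synthetase of glia (0.93), and the transcription factor gene pou4f2 (0.92). Others were slc32a1, the vesicular transporter of GABA (0.92), the synaptic gene snap25a (0.91), slc6a1b, a GABA transporter (0.91), cspg5b (0.91) and the homeobox gene lhx9 (0.91). The most opposed genes were acsl4a, an enzyme of fatty acid activation (−0.96), BX649307.2 (−0.96), the sterol exporter abca1b (−0.95), gnsb (−0.95) and slc22a6l (−0.95).

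The nearest gene to each single member differed between them. It was si:ch211-160f23.7 for elavl3 (r = 0.98), apba2b for elavl4 (0.95), pou4f2 for neurod1 (0.96), raraa, a retinoic acid receptor, for gap43 (0.90) and necap1 for nefmb (0.94). For stmn1b it was ptmab, a prothymosin gene (0.99). For both stmn2b (0.98) and tubb5 (0.95) it was the same alpha-tubulin gene, tuba1c (ENSDARG00000055216), so a tubulin of the other class lay closest to both. These r are descriptions over 15 libraries that share groups and scaling.

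Other genes of the growing axon and its cytoskeleton, none of them among the 8, are given by their counts and medians. Of 52 genes tested, 38 were lower in AVS high, 38 in AVS low and 34 in Afid low, with a median log2 fold change of −0.12, −0.12 and −0.078. Without control replicate 2 the counts were 29, 29 and 25 of 52, and the medians −0.038, −0.034 and 0.0031. By edgeR 0 of 52 passed in each comparison, and 4, 4 and 5 were lower and 0, 1 and 0 higher at an unadjusted p under 0.05. The shares over all genes at that p were 5.39%, 4.97% and 3.46% lower and 3.37%, 5.14% and 3.59% higher. The genes of smallest p were map1aa (−0.90, SE 0.28), a microtubule-associated protein, and tmsb (−1.55, SE 0.52) in AVS high, the stathmins stmn4 (−0.73, SE 0.24) and stmn3 (−0.44, SE 0.16) in AVS low, and stmn3 (−0.49, SE 0.17) and the growth cone gene marcksl1b (−0.53, SE 0.21) in Afid low. The level of tmsb was low, at 1.29 ± 0.69 CPM in AVS high and 3.76 ± 1.72 CPM in the control (SD, n = 4 each).

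Between AVS high and Afid low, 2 alpha-tubulin genes had the smallest p of this list, tuba1a (0.69, SE 0.22; edgeR adjusted p = 0.198) and a further gene named tuba1c (0.79, SE 0.24; 0.198), both higher in AVS high as tubb5 and stmn2b were. Of the whole list 24 genes were higher and 28 lower, with a median of −0.025.

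Of 40, 41 and 41 neuronal transcription factor and RNA-binding protein genes tested, 24 were lower in AVS high, 29 in AVS low and 30 in Afid low, with a median of −0.13, −0.14 and −0.25. The medians were −0.035, −0.051 and −0.15 without control replicate 2. Genes of smallest p were myt1b (−0.54, SE 0.21) and nova2, a splicing regulator (−0.47, SE 0.18), in AVS high, sox11a (−0.53, SE 0.21) and pou4f2 (−0.44, SE 0.19) in AVS low, and myt1a (−0.72, SE 0.26) and insm1a (−0.43, SE 0.16) in Afid low. By edgeR 0 genes of this list were called, and 5, 2 and 4 were lower at an unadjusted p under 0.05 (5.39%, 4.97% and 3.46% of all genes were).

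Genes of synapses and mature neurons, a later stage than the growing axon, numbered 32 tested. In AVS high 23 were lower, in AVS low 25 and in Afid low 26, with a median of −0.13, −0.20 and −0.092, and of 0.020, −0.10 and −0.0048 without control replicate 2. The glutamate transporter slc17a6a was the one of smallest p in AVS high, at 14.2 ± 4.03 CPM against 27.8 ± 5.83 CPM in the control (SD, n = 4 each), a log2 fold change of −0.98 (SE 0.23; edgeR adjusted p = 0.351). The sodium pump gene atp1a3b came next, at 0.50 (SE 0.20). Of 20 genes of neural progenitors and radial glia, an earlier stage, 11, 11 and 14 were lower, with a median of −0.052, −0.18 and −0.16, and of 0.0075, 0.0035 and −0.019 without control replicate 2. Its pax6b stood at −0.56 in both AVS groups (SE 0.20 in AVS high and 0.18 in AVS low). By edgeR 0 genes of either list were called. At an unadjusted p under 0.05, 4, 1 and 0 synapse genes and 1, 3 and 1 progenitor genes were lower, and 1, 0 and 0 and 0, 2 and 0 were higher. Over all genes 5.39%, 4.97% and 3.46% were lower and 3.37%, 5.14% and 3.59% higher at that p.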

How the data were processed

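The submitters' processing notes name fastp, HISAT2, featureCounts and DESeq2 as the authors' tools, without versions or settings, and the genome build is not given in the sources used here. For control, AVS and Afid low libraries, 3 deposited tables hold, per the file headers, raw read counts and FPKM per library and gene, and all 4 deposited tables hold a log2 ratio to the control with its p-value, raw and adjusted, by the authors. Tables were matched through the same 4 control libraries, whose counts differed in 0 genes. The authors' gene lengths and counts give the deposited FPKM exactly, up to 1 factor per library of 0.878 to 1.17. In the Afid high table the authors' adjusted p is 1 for 89.2% of genes and was read as not given there. A further 23 columns of normalized values per library were not used.

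The 9 genes and the lists of other genes were chosen with earlier results of these data known. Exposed groups were tested against the control, each on the counts of its own table, by edgeR 4.0.16 (quasi-likelihood test, TMM, filterByExpr) in R 4.3.3, over all genes, with Benjamini-Hochberg adjustment at 0.05. Exposed groups were compared with each other in 1 fit of 15 libraries over the 24886 genes that the 3 count tables share. The SE is the size of the log2 value over the square root of F. CPM values were scaled by TMM, and correlations used log2 CPM with a prior count of 2 and 100000 permutations of libraries. The summed level of a list adds the CPM of all its listed genes. DESeq2 1.42.0, limma-voom (limma 3.58.1), other scaling, no filter, leaving out each library and a replicate block were alternatives. Scripts were tested on simulated data. Libraries of 1 group never matched within sampling noise (chi-square per df of 7.76 or more). Control replicate 4 stood at 43.8 to 81.5 from the other controls, which stood at 12.5 to 51.6 from each other.

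Genes named are the members and, not all of them printed, the 2 genes of smallest unadjusted p of each list and comparison (mean over 20 reads in either group), the 10 most and 5 least like the members' mean, and the gene most like each member. The search for like genes left out the members. Sequences of the named genes were not used here.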

Additional observations from a re-analysis of the deposited data

Results flagged for a closer look

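Among 24 groups of 4 libraries tested for 1 library far from the rest (8 genes in control, AVS high and AVS low), 2 were past Dixon's 95% limit of 0.829, where chance flags about 1 in 20. The level of gap43 in control replicate 2 was 35.7 CPM against 20.7 to 21.5 CPM in the other controls, a gap of 0.951 of the whole range. The level of stmn1b in AVS low replicate 4 was 334 CPM against 141 to 172 CPM in the others, a gap of 0.836. The stmn1b level in control replicate 2, at 0.821, lay just inside the limit. Groups of 3 libraries, as in Afid low, were not tested.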

How the results depend on the processing

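Of 264 fold changes of the 8 genes under alternatives other than leaving out a library, 257 kept their direction and their side of the threshold. In place of 0 genes, DESeq2 called 61 in AVS high, 43 in AVS low and 15 in Afid low against the control, 5 between the AVS doses and 237 between AVS high and Afid low. Without a filter on low counts edgeR called 2 in AVS high. The cause of these differences was not tested. In stmn2b, AVS low against control, the value near 0 turned to 0.0080 with RLE size factors, 0.0022 without the filter, 0.0086 with DESeq2, 0.00065 with 15 libraries in 1 fit and 0.0089 with the replicate block. In nefmb, AVS high against AVS low, limma-voom gave −0.0072.

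Whether the replicate numbers pair the libraries is not named in the labels. Same-numbered libraries of different groups had correlations of deviations from −0.26 to 0.18, and no pair of groups had every value over 0.1. With 3 or 4 such values per pair of groups, the correlations cannot decide whether the libraries are paired. Between Afid low and AVS high the same-number values were 0.088, 0.18 and 0.074 for replicates 1, 2 and 4. There Afid low replicates 2 and 4 were closest to their own number, and replicate 1 to AVS high replicate 3 (0.24). The fit with the replicate block used only the libraries of the compared groups whose numbers occur in both. Between AVS high and Afid low this left out AVS high replicate 3 and all other groups, which the main fit held. With the replicate block edgeR called 440 genes between AVS high and Afid low and 1 between AVS low and Afid low. There elavl3 stood at −0.97 between AVS high and Afid low (edgeR adjusted p = 0.0399), the only call among the 8 genes. The part of the changed set of libraries in these calls was not tested. The fit with the block changed no other call.

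Leaving out 1 library in turn gave 0 to 1 called genes in Afid low against control (1 without control replicate 4) and 0 in the other 5 comparisons, and 331 of 360 fold changes of the 8 genes kept their direction. Ranges that crossed 0 were, for AVS high against control, −0.018 to 0.25 in stmn2b and −0.037 to 0.28 in tubb5, both below 0 without AVS high replicate 2. For AVS low against control they were −0.21 to 0.11 in stmn2b and −0.16 to 0.18 in tubb5, and for Afid low against control −0.52 to 0.20 in stmn1b. Between AVS high and AVS low they were −0.54 to 0.11 in elavl3, −0.060 to 0.14 in elavl4, −0.018 to 0.32 in stmn2b, −0.034 to 0.57 in stmn1b, −0.093 to 0.11 in nefmb and −0.099 to 0.30 in tubb5. Between AVS low and Afid low they were −0.17 to 0.020 in elavl4 and −0.030 to 0.12 in neurod1. Between AVS high and Afid low they were −0.16 to 0.061 in elavl4 and −0.015 to 0.21 in gap43. All 152 recomputed group means stayed within 1 SD. Leaving out 1 library of 3 or 4 cannot move a mean that far, so for those means the check could not fail. The small number of libraries, 3 or 4 a group, limits these comparisons, and a missed threshold does not show that levels were equal.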

Other observations

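Lists of tissues other than neurons held 0 genes called by edgeR. Of 19 lens genes tested, 19 were higher in AVS high, 7 of them at an unadjusted p under 0.05 (3.37% of all genes were). Their median log2 fold change was 0.56 (0.42 without control replicate 2). In AVS low 15 were higher (median 0.24, and 0.083 without control replicate 2) and in Afid low 14 (0.25 and 0.073 likewise). The summed lens levels overlapped, with 8065 to 15624 CPM in AVS high and 5006 to 11998 CPM in the control, where replicate 4 was highest. These medians are not given without control replicate 4. The genes of smallest p were mipb (0.86, SE 0.30) in AVS low and bfsp2 (0.86, SE 0.25) in Afid low, and the summed lens level was lowest of all libraries in control replicate 2, at 5006 CPM. The beta crystallin crybb1l1 stood at 1846 ± 809 CPM in AVS high and 827 ± 271 CPM in the control (SD, n = 4 each). Of 17 exocrine pancreas genes, 16 were higher in AVS high (median 0.82, and 0.50 without control replicate 2), 16 in AVS low (0.55 and 0.22 likewise) and 11 in Afid low (0.078 and −0.23 likewise), and the carboxypeptidase cpb1 had the smallest p in AVS high (1.02, SE 0.25).

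Of 14 skin keratin genes, 12 were higher in AVS high (median 0.31), 8 in AVS low (0.069) and, of 13 tested, 4 in Afid low (−0.24). Without control replicate 2 the keratin medians were 0.24, −0.060 and −0.20. Of 21 skeletal muscle genes, 12 were higher in AVS high (0.023), 6 in AVS low (−0.23) and 7 in Afid low (−0.12). Without control replicate 2 the muscle medians were 0.033, −0.20 and −0.041. Of 11 genes of oligodendrocytes and myelin, which wrap the axons, 9 were lower in Afid low (−0.30), with the myelin genes plp1b (−0.43, SE 0.15) and cldnk (−0.44, SE 0.18) of smallest p. In AVS high the myelin list had 6 of 11 lower (−0.00024) and in AVS low 7 of 11 (−0.13). Without control replicate 2 the myelin medians were 0.10 in AVS high, −0.063 in AVS low and −0.10 in Afid low, with 5, 6 and 9 of 11 lower.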
